A study of Mus musculus with 10 samples.

Results

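The murine Ms4a cluster on chromosome 19 holds a row of genes for small membrane proteins, of which 8 named myeloid members were examined here: *Ms4a4a*, *Ms4a4b*, *Ms4a4c*, *Ms4a6b*, *Ms4a6c*, *Ms4a6d*, *Ms4a7* and *Ms4a8a*. They were taken by gene name from a table of 55487 genes, in which 21 genes carry an Ms4a name. Each of the 8 passed the filter on low counts, which left 13740 genes for testing. Of the 13 other Ms4a genes, 1 passed it.

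The 10 RNA-sequencing libraries came from the spinal cords of 5 male mice (m2, m6, m234, m235 and m236) on a C57BL/6 background that carried the *Arg1* reporter allele Arg1tm1Lky, in which yellow fluorescent protein (YFP) is made from the arginase 1 locus. All animals were young adults with experimental autoimmune encephalomyelitis (EAE), a disease induced by immunization against a myelin peptide, and were taken at peak disease. Viable CD45+CX3CR1+ cells without Ly6G and CD3 were sorted from each animal into YFP+ cells (ARG1+, 200000 per library, n = 5) and YFP- cells (ARG1-, 100000 per library, n = 5), so every ARG1+ library had an ARG1- partner from the same animal. Both groups shared the reporter allele and the disease, and no healthy animal was sequenced. CX3CR1 marks microglia, CNS-associated macrophages and monocyte-derived cells alike, so each library can hold a mix of them.

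MS4A proteins cross the plasma membrane several times, with both ends inside the cell, and several of them act as partners of immune receptors. The best-known relatives outside the 8 members are *Ms4a1*, which encodes the B cell antigen CD20, and *Ms4a2*, which encodes a subunit of the IgE receptor of mast cells. In macrophages MS4A4A associates with the fungal receptor Dectin-1 and MS4A6D with the complement receptor VSIG4, *Ms4a7* is used as a marker that separates border-associated and monocyte-derived macrophages from microglia, and *Ms4a8a* is induced in alternatively activated macrophages.

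The sort and the depth were checked first. *Arg1* reached 814 ± 174 CPM (counts per 1000000 counts of a library, SD, n = 5) in ARG1+ and 18.4 ± 4.96 CPM in ARG1- libraries. *Cx3cr1*, the gene behind the gate, was detected in both groups, at 139.6 ± 67.0 and 281.8 ± 176 CPM, and *Ptprc* (CD45) at 622.9 ± 37.5 and 727.6 ± 70.3 CPM. The genes for the excluded CD3 chains and Ly6G were near 0, with at most 24 reads for any of them over the 5 libraries of a group. Libraries held 28212174 to 35455643 counts, except the ARG1- library of m234 with 8396863, and the fold changes, ratios and counts of calls below were also computed without that library. In bulk RNA a lower value can mean fewer cells with a transcript or less of it per cell, and these cannot be told apart.

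The 8 genes did not differ in 1 direction. With edgeR's quasi-likelihood test and Benjamini-Hochberg adjustment over all genes (FDR below 0.05), *Ms4a7* was higher in ARG1+ cells, *Ms4a4b* and *Ms4a4c* were lower, and 5 members did not pass. Over all genes tested, 6.82% were called higher and 6.15% lower, 937 and 845 genes. With scaling to total counts the split was 701 higher and 1282 lower, with the same member counts. The median log2 fold change (ARG1+ over ARG1-) of the 8 members was -0.15, against -0.0022 over all genes. Under the stricter limits that also ask for an absolute log2 fold change above 1, *Ms4a4b* and *Ms4a4c* stayed among the genes called lower (0.888% of all genes), and no member was among those called higher (0.56%). Without the shallow library the counts were the same, 1 higher and 2 lower.

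More members passed within animals. When the animal entered the fit as a block, 3 members were higher (*Ms4a7*, *Ms4a4a* and *Ms4a6d*) and 4 were lower (*Ms4a4b*, *Ms4a4c*, *Ms4a6b* and *Ms4a6c*), with *Ms4a8a* not passing. That fit called many more genes in general, 16.8% of all genes higher and 18.3% lower. The members' levels followed the animal: m235 gave the highest value in both groups for 6 of the 8 members, and m234 the lowest in both groups for 4. The p-values without a block treat the libraries of an animal as independent, although they are paired. Those with it rest on the spread of the differences within these 5 animals.

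**Figure D1:**
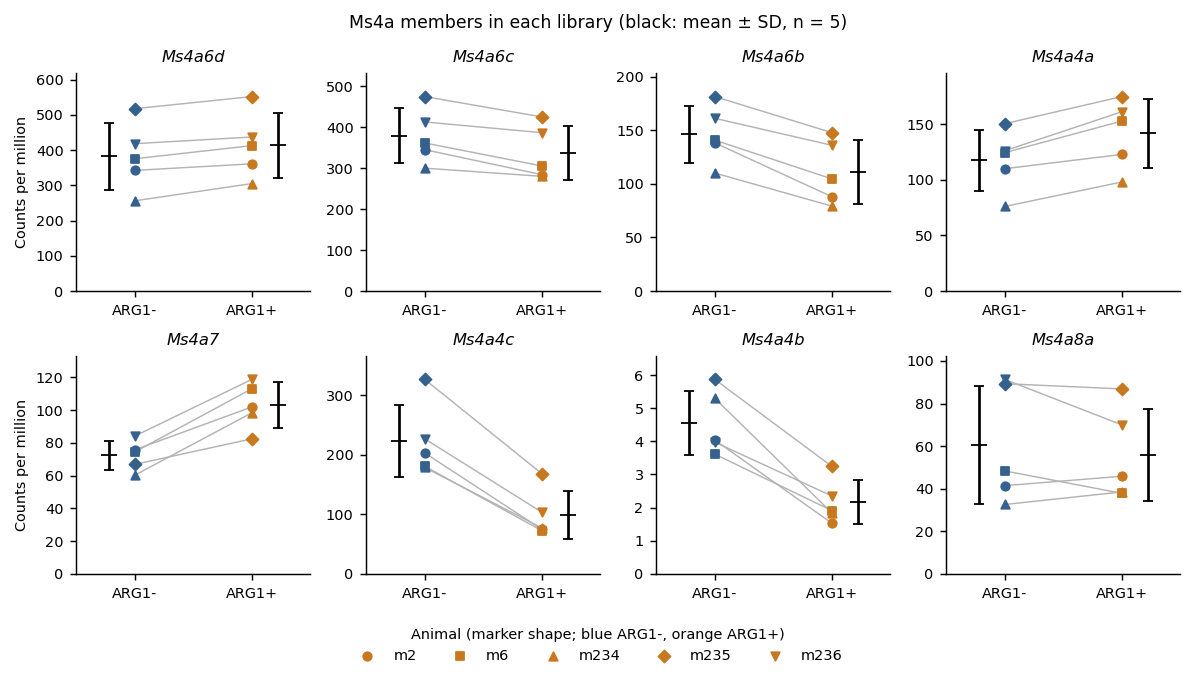
Level of each of the 8 members in CPM (y axes start at 0) in the ARG1- (blue) and ARG1+ (orange) library of each animal, joined by a grey line, with the mean ± SD of 5 libraries in black. Every line falls for Ms4a4b, Ms4a4c, Ms4a6b and Ms4a6c, every line rises for Ms4a7, Ms4a4a and Ms4a6d, and the lines of Ms4a8a go both ways.

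*Ms4a4c* had the log2 fold change of the largest size among the 8, both with and without the animal as a block. It lies on the plus strand at chr19:11404770-11427246 (GRCm38), between *Ms4a4a* and *Ms4a4b*. In the animals m2, m6, m234, m235 and m236 in that order, the ARG1- libraries held 203, 180.4, 179, 326 and 227 CPM, and the ARG1+ libraries 74.8, 72.6, 77.2, 168 and 104 CPM. All ARG1+ libraries were below all ARG1- libraries, as was the case, in either direction, for 11.3% of all genes tested. The log2 fold change was -1.17 ± 0.244 (SE, adjusted p = 0.0101, edgeR), a 2.25-fold lower level, and lay between -1.43 and -0.95 within the 5 animals. Without both libraries of m2 it no longer passed (adjusted p = 0.0523, log2 fold change still negative).

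*Ms4a4b*, next along the chromosome (chr19:11443553-11467055, plus strand), was also lower. It encodes a protein best known from T cells, where it associates with the costimulatory receptor GITR and restrains proliferation. Its level was far below the others: 4.04, 3.61, 5.30, 5.87 and 3.97 CPM in the ARG1- libraries, and 1.53, 1.91, 1.84, 3.24 and 2.35 CPM in the ARG1+ libraries, in the same order of animals. These groups did not overlap either. The log2 fold change was -1.05 ± 0.214 (SE, adjusted p = 0.00911, edgeR), or 2.06-fold lower, resting on 586 reads over all ARG1- and 339 over all ARG1+ libraries, and it passed under each alternative that kept the gene.

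*Ms4a4b* and *Ms4a4c* are close copies, with 91.7% identity over their coding sequences of 678 bases each. In each library the reads assigned to *Ms4a4b* came to between 1.75% and 2.97% of those assigned to *Ms4a4c* (1.93% to 2.63% in ARG1+, 1.75% to 2.97% in ARG1-). Of all 50-base stretches of *Ms4a4c* transcripts, the length of the reads, 7.73% also occur in *Ms4a4b*. Secondary alignments were removed before counting, and whether a read that aligns equally well to both genes was kept at its primary place is not stated, so the *Ms4a4b* value is uncertain to that extent, and the part of shared reads in it was not tested.

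RefSeq promoter windows of the members were compared as well. Those of this pair, 250 bases before and 50 after the RefSeq start (GRCm38.p6, plus strand), align over 183 columns with 88.5% identity, and those of *Ms4a6b* and *Ms4a6c* over 232 columns with 81.0%. Any other pair of the member windows aligned over at most 78 columns. For *Ms4a4c* and *Ms4a6b* the RefSeq start lies 2891 and 2047 bases inside the gene bounds given here, so these windows are not upstream of the whole annotated gene. The bases before the start, without those of annotated exons, are shown for both pairs because their members were lower together within animals, with capitals for bases identical to the paired gene in the alignment. The stretches shown are chr19:11407411-11407660 (*Ms4a4c*), chr19:11443308-11443552 (*Ms4a4b*), chr19:11469118-11469365 (*Ms4a6c*) and chr19:11518309-11518452 (*Ms4a6b*).
Ms4a4c: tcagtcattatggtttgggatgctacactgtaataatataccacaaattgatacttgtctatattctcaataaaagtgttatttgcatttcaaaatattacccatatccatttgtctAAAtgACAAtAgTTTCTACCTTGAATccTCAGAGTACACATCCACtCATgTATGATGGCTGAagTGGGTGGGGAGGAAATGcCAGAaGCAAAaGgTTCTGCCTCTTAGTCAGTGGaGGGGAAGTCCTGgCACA
Ms4a4b: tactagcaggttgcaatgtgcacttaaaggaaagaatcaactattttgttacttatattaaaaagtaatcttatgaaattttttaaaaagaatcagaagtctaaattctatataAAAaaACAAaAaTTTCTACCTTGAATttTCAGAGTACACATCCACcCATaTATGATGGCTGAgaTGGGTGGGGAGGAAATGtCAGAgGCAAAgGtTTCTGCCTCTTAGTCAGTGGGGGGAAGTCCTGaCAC
Ms4a6c: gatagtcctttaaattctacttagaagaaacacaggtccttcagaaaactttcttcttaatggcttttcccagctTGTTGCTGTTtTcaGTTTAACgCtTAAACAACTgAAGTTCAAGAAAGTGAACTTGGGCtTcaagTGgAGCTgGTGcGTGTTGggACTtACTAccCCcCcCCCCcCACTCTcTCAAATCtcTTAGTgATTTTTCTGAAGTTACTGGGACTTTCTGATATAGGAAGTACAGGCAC
Ms4a6b: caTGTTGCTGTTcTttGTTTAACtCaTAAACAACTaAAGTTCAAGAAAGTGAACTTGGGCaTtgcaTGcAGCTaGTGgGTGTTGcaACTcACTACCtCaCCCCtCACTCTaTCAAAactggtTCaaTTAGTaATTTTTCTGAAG

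In the *Ms4a4* pair the capitals gather in the bases nearest the start, and the bases farther away are not aligned. In the *Ms4a6* pair they begin nearer the left end of the stretch. The whole 300-base windows were searched on both strands. The interferon-gamma activated motif TTCNNNGAA (8.3% of 32851 windows of all genes) and the ETS core GAGGAAG (13.6%) were in no member window. The core AANNGAAA, which interferon regulatory factors bind (23.9%), occurred once each in *Ms4a4b*, in *Ms4a6c* and in the second of the *Ms4a7* windows, in *Ms4a4b* at position -225 from the start and so outside the part aligned with *Ms4a4c*. The AP-1 motif TGANTCA (7.81%) occurred in *Ms4a8a*, *Ms4a4b* and the second *Ms4a7* window, and the TATA box TATAAA (13.6%) in *Ms4a4b*. Windows were found for 7 of the 8 members, not for *Ms4a6d*. Such matches describe letters only.

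*Ms4a7* was the member that rose. It lies on the minus strand at chr19:11321039-11336146, and its transcript is a marker of macrophages as opposed to resting microglia. The ARG1- libraries held 75.7, 74.4, 60.3, 66.9 and 84.1 CPM and the ARG1+ libraries 102, 113, 98.3, 82.4 and 119 CPM, again for m2, m6, m234, m235 and m236. The ARG1+ value was higher in 5 of 5 animals, while the groups overlapped in 1 place, where the ARG1+ library of m235 was below the ARG1- library of m236. The log2 fold change was 0.50 ± 0.106 (SE, adjusted p = 0.0103, edgeR), or 1.42-fold. It no longer passed without both libraries of m6 (adjusted p = 0.0631).

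The other members known from macrophages did not pass without the block. *Ms4a4a* (chr19:11375523-11392790, plus strand) averaged 142 ± 31.1 CPM in ARG1+ libraries against 117 ± 27.3 CPM in ARG1- ones. The within-animal difference was positive in 5 of 5 animals, from 0.16 to 0.36 on the log2 scale, but the spread between animals was larger. Its log2 fold change was 0.27 ± 0.180 (SE, adjusted p = 0.342, edgeR), and 0.28 with an adjusted p of 6.16e-04 when the animal was a block.

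*Ms4a6d* (chr19:11586604-11604849, minus strand), reported to hold back inflammasome signalling together with VSIG4, had the highest level of the 8, also per length, at 413 ± 92.5 CPM in ARG1+ libraries against 382 ± 96.3 CPM in ARG1- ones. The groups differed little, by 0.063 to 0.25 on the log2 scale within animals, with ARG1+ higher in 5 of 5. The log2 fold change was 0.11 ± 0.183 (SE, adjusted p = 0.720, edgeR), and 0.12 with an adjusted p of 0.0324 with the animal as a block.

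*Ms4a8a* (chr19:11067471-11081102, minus strand) lies apart from the other members, nearer the left end of the cluster. The ARG1- libraries held 41.5, 48.4, 32.6, 89.3 and 91.3 CPM, and the ARG1+ libraries 45.9, 37.8, 38.5, 86.9 and 70.0 CPM. The libraries of m235 and m236 were high in both groups and those of the other animals low, and the ARG1+ value was higher in 2 animals and lower in 3. Neither the fit without a block (log2 fold change -0.13 ± 0.314, SE, adjusted p = 0.817, edgeR) nor that with it (adjusted p = 0.391) called a difference.

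*Ms4a6b* and *Ms4a6c* are neighbours on the plus strand (chr19:11516512-11531256 and chr19:11469366-11482192) with 74.7% identical coding sequences. The coding sequence of *Ms4a6b* is closer to that of *Ms4a6d*, with 80.1% identity. For *Ms4a6b* the ARG1- libraries held 138, 141, 110.1, 181 and 161 CPM and the ARG1+ libraries 88.0, 105, 79.2, 148 and 136 CPM. It was lower in ARG1+ cells in 5 of 5 animals, by 0.24 to 0.65 on the log2 scale, with groups that overlapped. The log2 fold change was -0.40 ± 0.176 (SE, adjusted p = 0.150, edgeR), and -0.42 with an adjusted p of 3.71e-04 with the animal as a block.

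*Ms4a6c* was one of the most abundant members, at 336 ± 65.7 CPM in ARG1+ libraries against 379 ± 67.0 CPM in ARG1- ones. It was lower in 5 of 5 animals by a small margin. The log2 fold change of -0.17 ± 0.143 (SE) did not pass (adjusted p = 0.449, edgeR), while that with the animal as a block was -0.18 with an adjusted p of 0.00736. An antisense gene, *BE692007*, overlaps 5.49% of its exon bases, and 49.6% of the 50-base stretches of all its annotated transcripts also occur, on the other strand, in transcripts of that gene. The kit keeps strand, whether the counting used it is not stated, and *BE692007* itself had 1 read over all ARG1+ and 2 over all ARG1- libraries.

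**Figure D2:**
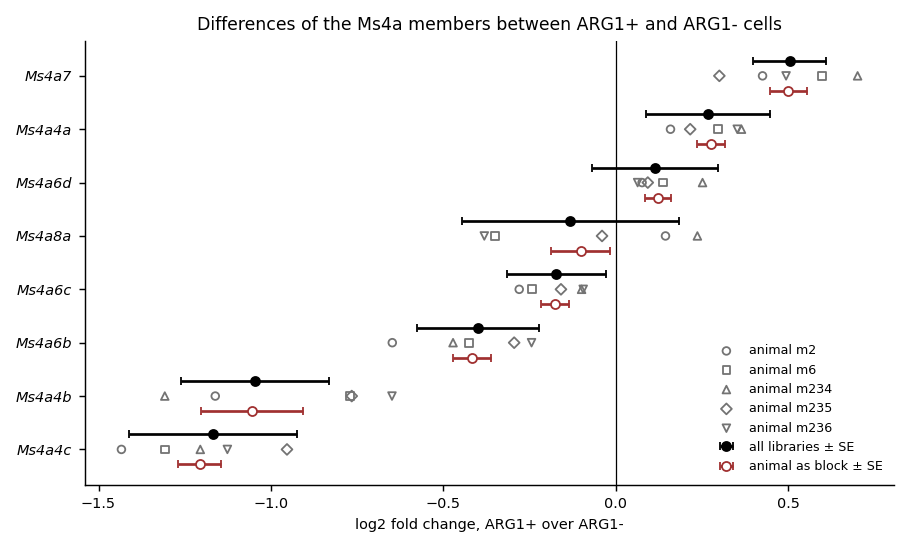
Log2 fold change of ARG1+ over ARG1- for each member on the x axis, from the fit of all 10 libraries (black, ± SE), from the fit with the animal as a block (red open circles, ± SE) and as the difference within each animal (grey symbols). The black and red values nearly coincide, with shorter error bars for the red in every row, and the grey symbols of 7 members lie on 1 side of 0.

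Ratios within a library cancel the library scaling, apart from the 0.5 CPM added to each gene, and compare paralogues directly. That addition weighs most on *Ms4a4b*, the member with the lowest level. Of 7 ratios of log2(CPM + 0.5), tested by 2-sided exact permutation over the 10 libraries with adjustment over the 7, 5 differed between the groups, and 0.00794 is the smallest p that this design can give. The ratio of *Ms4a4a* to *Ms4a4c* differed most, being 0.56 ± 0.384 in ARG1+ and -0.92 ± 0.268 in ARG1- libraries (difference 1.48, exact p = 0.00794, adjusted 0.0139). *Ms4a4a* thus held the larger CPM of these neighbours in each ARG1+ library and *Ms4a4c* in each ARG1- library. Their exon lengths differ (836 and 1723 bases), and per kilobase of exon the mean of *Ms4a4a* was the larger in both groups. *Ms4a4a* to *Ms4a4b* differed by 1.21 (exact p = 0.00794, adjusted 0.0139), also with no overlap.

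*Ms4a4b* to *Ms4a4c* differed by 0.27, from -5.45 ± 0.297 in ARG1- to -5.17 ± 0.213 in ARG1+ libraries, and did not pass (exact p = 0.151, adjusted 0.176), being higher in 4 of 5 animals. With 0.1 CPM added in place of 0.5, the difference was 0.15 and did not pass either (adjusted exact p = 0.365). In the Ms4a6 group, the order within a library tilted towards *Ms4a6d* in ARG1+ cells. *Ms4a6b* to *Ms4a6d* was lower by 0.54 and *Ms4a6b* to *Ms4a6c* by 0.24 (each exact p = 0.00794, adjusted 0.0139), with no overlap between groups. *Ms4a6c* to *Ms4a6d* was lower by 0.30 with overlapping groups (exact p = 0.0159, adjusted 0.0222). *Ms4a7* to *Ms4a4a* was higher by 0.23 in ARG1+ libraries and higher in 5 of 5 animals, but did not pass (exact p = 0.349). The test within animals cannot go below 0.0625 with 5 pairs, and none of the ratios can pass it.

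**Figure D3:**
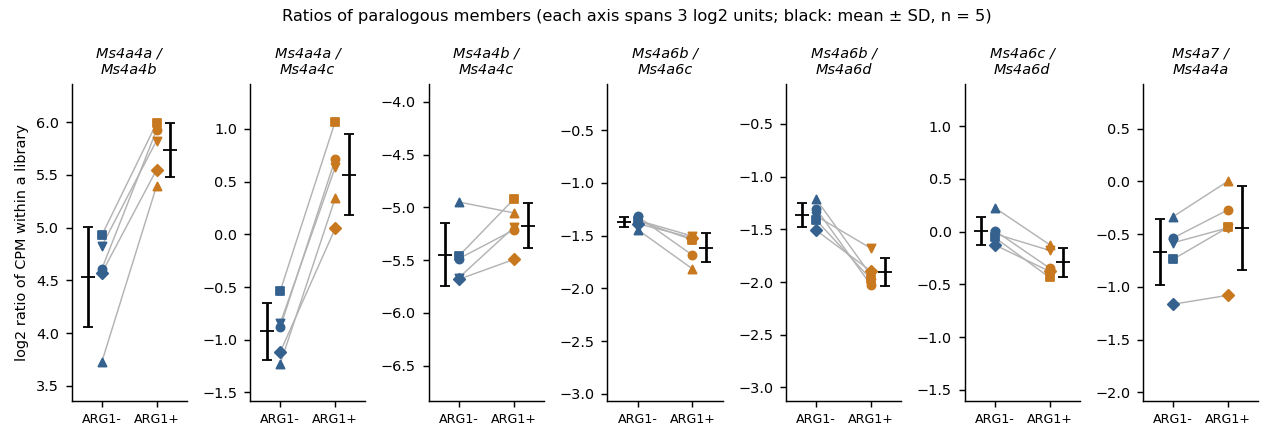
Log2 ratio of the CPM (each plus 0.5) of a member and its paralogue within a library on the y axis, for ARG1- (blue) and ARG1+ (orange) libraries joined by animal, with the mean ± SD of 5 in black. Each panel spans 3 log2 units, and the ratios of Ms4a4a to Ms4a4b and to Ms4a4c shift by more than 1 unit, while those of the Ms4a6 group shift by 0.54 or less.

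Set against gene length, the members differed widely in level. In RPKM (CPM divided by the exon length in kilobases) the ARG1+ libraries held *Ms4a6d* at 269 ± 60.2, *Ms4a6c* at 183 ± 35.7 and *Ms4a4a* at 169.8 ± 37.2, followed by *Ms4a7* at 60.01 ± 8.21, *Ms4a4c* at 57.6 ± 23.5, *Ms4a8a* at 51.6 ± 20.1, *Ms4a6b* at 41.5 ± 11.1 and *Ms4a4b* at 0.458 ± 0.140. *Ms4a6c* and *Ms4a4a*, and each neighbouring pair from *Ms4a7* to *Ms4a6b*, differed by less than 1 SD. In ARG1- libraries *Ms4a4c* stood beside *Ms4a4a*, at 129 ± 35.4 and 140.4 ± 32.7 RPKM, and *Ms4a7* came after *Ms4a6b*, at 42.2 ± 5.31 and 54.6 ± 9.98 RPKM. The summed level of the 8 was 833 ± 177 RPKM in ARG1+ and 878 ± 197 RPKM in ARG1- libraries, with overlapping ranges. As a share of that sum, *Ms4a4c* made up 14.7% in ARG1- and 6.77% in ARG1+ libraries, *Ms4a4a* 16.0% and 20.4%, and *Ms4a7* 4.95% and 7.49%.

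Among all tested genes ranked by mean CPM, *Ms4a6d* lay at percentile 97.5 and *Ms4a6c* at 97.0, *Ms4a4b* at 19.7 and the other members between 74.8 and 91.3. Apart from *Ms4a14*, the Ms4a genes that are no members were at or near 0. The cluster spans chr19:10962293-11640851, and 5 of its genes (*Ms4a10*, *Ms4a18*, *Ms4a13*, *Ms4a12* and *Ms4a2*) were listed at 0 in every library, which for counting error alone allows up to 3 reads in each. *Ms4a1* had 3 reads over all ARG1+ and 6 over all ARG1- libraries. *Ms4a3*, a marker of granulocyte-monocyte progenitors, had 0 and 22 reads, and *Ms4a4d*, the nearest relative of *Ms4a4c* after *Ms4a4b* with 85.7% coding identity, 20 and 45. *Ms4a15*, *Ms4a20*, *Ms4a19* and *Ms4a5* had at most 9 reads in a group.

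*Ms4a14*, which adjoins *Ms4a7*, was the other Ms4a gene above the filter. Its level was 12.2 ± 2.04 CPM in ARG1+ libraries against 8.95 ± 1.71 CPM in ARG1- ones, higher in 5 of 5 animals. Its log2 fold change of 0.43 ± 0.148 (SE) did not pass (adjusted p = 0.0777, edgeR), and passed with the animal as a block (adjusted p = 0.0158). The distant relatives *Tmem176a* and *Tmem176b* on chromosome 6, known from dendritic cells, had log2 fold changes of -1.29 ± 0.510 and -1.36 ± 0.489 (SE, adjusted p = 0.113 and 0.0866, edgeR), and both passed as lower with the animal as a block (adjusted p = 1.57e-04 and 4.36e-05).

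**Figure D4:**
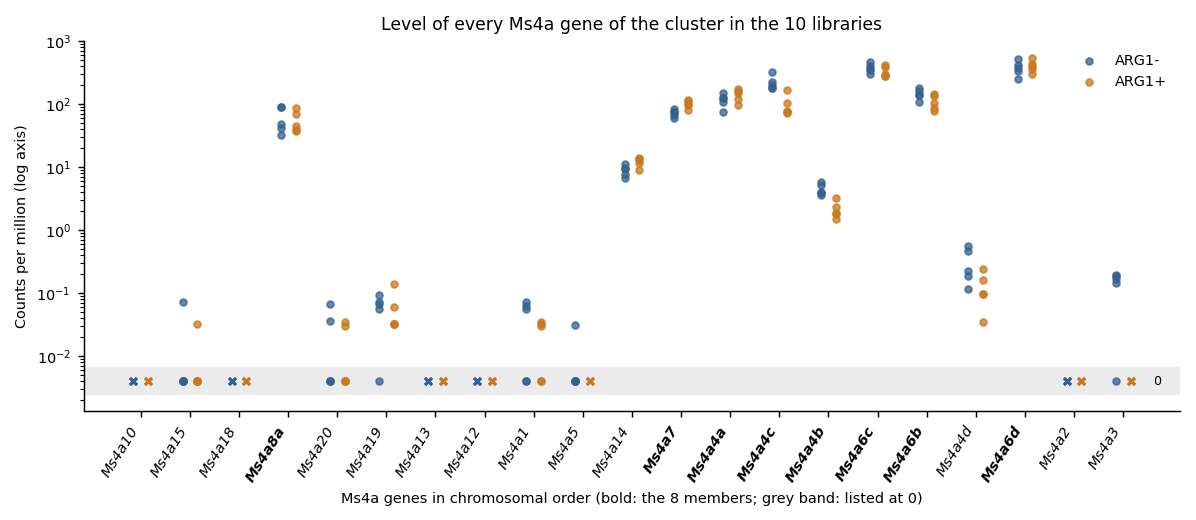
CPM (log axis) of all 21 Ms4a genes in chromosomal order in the 5 ARG1- (blue) and 5 ARG1+ (orange) libraries, with libraries listed at 0 in the grey band. The 8 members (bold) and Ms4a14 lie above 1 CPM in every library, and the other 12 genes lie below it.

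Genes in and beside the cluster were examined too. Of 22 tested genes within or up to 500 kb beside the cluster that carry no Ms4a name, 2 were lower and none higher, with a median log2 fold change of -0.073. The 2 were *Ccdc86*, the nearest tested gene on the left at 13.03 kb (-0.34 ± 0.0703, SE, adjusted p = 0.00911, edgeR), and *Cpsf7* (-0.20, adjusted p = 0.0317, edgeR). With libraries or animals left out, the *Cpsf7* call was lost in 10 of 15 fits and the *Ccdc86* call in 3, those without m2, m6 or m236, where neither gene passed. Inside the cluster, *AW112010* was at 485 ± 102 CPM in ARG1+ libraries against 439.8 ± 154 CPM in ARG1- ones, above the mean of every member, and did not pass (0.14, adjusted p = 0.709, edgeR). *Mrpl16*, the nearest tested gene on the right at 129.5 kb, had a log2 fold change of -0.057 (adjusted p = 0.747, edgeR).

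Genes with the most similar profile over the 10 libraries were found by the mean absolute difference of centred log2 CPM, which describes likeness and tests nothing. *Ms4a4c* was closest to *Ifi213* (0.150 log2 units), *Jaml* (0.169) and *Ifi208* (0.181), with *Ms4a4b* at rank 13. For *Ms4a4b* the closest were *Gm18853* (0.110), *Oas2* (0.124) and *Ifi213* (0.133). *Ifi213*, *Ifi208* and *Oas2* belong to interferon-induced gene families. *Ms4a4a* was closest to *Man2a1* (0.0900), *Ms4a6d* (0.0928) and *Gm6579* (0.0931), and *Ms4a6d* to *S100a10* (0.0681), *Ms4a4a* and *Rsl1* (0.0973).

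The pair *Ms4a6b* and *Ms4a6c* lay within 0.121 log2 units. Between *Adora2b* (0.108) and *Ezr* (0.126), *Ms4a6c* was the second gene to *Ms4a6b*, while *Ms4a6c* had *Ezr* (0.0567), *Sla* (0.0625) and *Tut1* (0.0695) ahead of it. *Ms4a7* followed *Siae* (0.0701), *Fam234a* (0.0783) and *Nmnat3* (0.0816), and its nearest fellow member, *Ms4a4a*, came at rank 4968. *Ms4a8a* had no close match, its first being *Mmp19* (0.186), *Adamtsl4* (0.209) and *Trim6* (0.235).

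A list of interferon-stimulated genes was examined beside these profiles. Of 20 genes, 6 were lower and none higher (median log2 fold change -0.61), and 18 were lower with the animal as a block. The count of 6 depended on single libraries. It was 17 without the ARG1+ library of m235, which was also the highest ARG1+ library for *Ms4a4c*, and 17 without both libraries of m235, but 3 to 5 without any other library and 1 to 3 without any other animal. Their summed level was lower in ARG1+ cells in 5 of 5 animals, with 1158 to 2788 CPM in ARG1+ libraries and 1870.2 to 3220 CPM in ARG1- libraries. The called gene with the largest difference was *Isg20* (-1.22 ± 0.252, SE, adjusted p = 0.00962, edgeR), and the most abundant was *Irf7* (-0.41, adjusted p = 0.301). The part of this response in the *Ms4a4b* and *Ms4a4c* values was not tested.

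Markers of other cells moved between the groups too. Of 8 monocyte genes 4 were lower and none higher (median -0.73), and with the animal as a block 5 were lower and 2 higher. Their summed level, however, was higher in 5 of 5 animals (12377 to 15880 CPM against 8476 to 13269), being dominated by *Fn1*, which did not pass (0.46, adjusted p = 0.0776, edgeR). Of 8 dendritic cell genes 5 were tested and 4 were lower (median -2.76), led by *Flt3* at 0.289 ± 0.141 CPM in ARG1+ libraries against 3.63 ± 1.47 CPM in ARG1- ones, with sums of 9.28 to 23.9 CPM and 20.5 to 39.7 CPM. *Clec9a* was the most abundant of them (0.28, adjusted p = 0.547, edgeR). The dendritic cell genes called had the direction of *Ms4a4b* and *Ms4a4c*, the monocyte genes were mixed, and the part of either list in those values was not tested.

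Macrophage and microglia markers are given beside *Ms4a7*. Of 8 genes of border-associated macrophages 4 were tested, 2 (*Mrc1* and *Pf4*) were called higher and none lower (median 0.97), with *Pf4* at 17.3 ± 6.18 CPM in ARG1+ libraries against 4.47 ± 2.31 CPM in ARG1- ones and the most abundant, *F13a1*, just short of the threshold (0.78, adjusted p = 0.0511, edgeR). *Mrc1* (1.16, adjusted p = 0.0320, edgeR) lost its call in 10 of 15 leave-out fits. The list's count dropped to 1 when an ARG1+ library (from m236, m6 or m2), an ARG1- library (from m235 or m6) or an animal (m236, m235 or m6) was omitted, and reached 3 when m234 was omitted, whole or only its ARG1+ library. The sum was 808 to 1612 CPM in ARG1+ libraries and 415 to 980 CPM in ARG1- libraries, and the defining genes *Cd163*, *Lyve1* and *Folr2* had at most 23 reads in a group. None of 9 microglia genes passed (median -0.94), 5 were lower without the ARG1- library of m235 and 2 without both libraries of m235, 7 were lower with the animal as a block, and their sum was lower in 5 of 5 animals, at 753 to 1128 CPM in ARG1+ libraries and 811 to 2667 CPM in ARG1- libraries. Of 9 general macrophage genes 2 were higher and none lower (median -0.011), *Cd68* and *Mertk*, the second lost in 10 of 15 such fits, with *Cd68* at 0.58 (adjusted p = 0.00155, edgeR) and *Apoe* at 0.45 (adjusted p = 0.238). With the animal as a block, 4 general macrophage genes were higher and 2 lower, and the 4 tested border-associated genes were higher. The part of these cell types in the *Ms4a7* value was not tested.

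Lymphoid markers are given beside *Ms4a4b*. Of 11 T cell genes 3 were tested, and 1, *Il7r*, was higher (0.90, adjusted p = 0.00961, edgeR). *Cd5* did not pass (-0.71, adjusted p = 0.321, edgeR) and was lower with the animal as a block (-0.84, adjusted p = 0.0241), with 110 reads in ARG1+ and 143 in ARG1- libraries, and *Lck* had 100 and 116 reads and *Trbc2* 41 and 79. The defining genes *Cd3d*, *Cd3e*, *Cd3g*, *Cd8a* and *Trac* had 11 to 24 reads in each group, below the 339 and 586 of *Ms4a4b*. Of 7 genes of NK and innate lymphoid cells 1 was tested, *Klrk1*, and it was lower (-1.86, adjusted p = 3.50e-04, edgeR), with list sums of 3.13 to 5.65 CPM in ARG1+ libraries and 10.6 to 14.7 CPM in ARG1- libraries, while *Ncr1* and *Prf1* had at most 3 reads in a group. Their part in the *Ms4a4b* value was not tested.

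The lists of other cells were mixed. Of 7 B cell genes 2 were tested, with *Cd22* higher (1.07, adjusted p = 4.78e-04, edgeR) and *Fcmr* listed at 0. Of the plasma cell genes, *Sdc1* was higher (0.70, adjusted p = 0.00239) and *Jchain* lower (-2.87, adjusted p = 0.0184, edgeR), and *Mzb1* had at most 1 read in a group. None of 5 mast cell and basophil genes could be tested, *Cpa3*, *Fcer1a* and *Mcpt8* being listed at 0 like *Ms4a2*. Of 9 neutrophil genes 2 were tested, with *S100a9* lower (-3.40, adjusted p = 0.00977, edgeR), though below the filter once the ARG1- library from m235, m6 or m2 was omitted, and *S100a8* the most abundant (0.23, adjusted p = 0.560). None of 5 tested oligodendrocyte genes passed, *Mbp* among them (0.18, adjusted p = 0.0789, edgeR).

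Reported partners of MS4A proteins were examined last. Of 8 listed, 7 were tested and 1, the growth factor receptor gene *Kit*, was lower, at 3.51 ± 0.899 CPM in ARG1+ libraries against 11.8 ± 2.62 CPM in ARG1- ones (log2 fold change -1.74 ± 0.192, SE, adjusted p = 3.49e-04, edgeR). *Clec7a*, which encodes Dectin-1, did not pass (-0.15, adjusted p = 0.468), nor did the kinase *Syk* (0.014, adjusted p = 0.921) and the adaptor *Card9* (-0.098, adjusted p = 0.425, edgeR) that signal behind it. *Trem2*, the lipid receptor whose shed form has been linked to the human cluster, had 265 ± 38.9 CPM in ARG1+ libraries against 203 ± 48.8 CPM in ARG1- ones, and passed with the animal as a block (0.41, adjusted p = 0.00127) but not without (0.39, adjusted p = 0.112, edgeR). Its adaptor *Tyrobp* (0.018, adjusted p = 0.874) and *Tnfrsf18*, the GITR gene (-0.62, adjusted p = 0.168, edgeR), did not pass, and *Vsig4*, the reported partner of MS4A6D, was listed at 0 in all 10 libraries.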

How the data were processed

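Total RNA was sequenced from 10 libraries with a directional kit as 50-base single-end reads. The authors aligned them with STAR 2.7.10b to GRCm38 and deposited raw gene counts (GenomicAlignments, union mode, Ensembl basic annotation, secondary alignments removed). From these counts, edgeR 4.0.16 (R 4.3.3, TMM scaling, quasi-likelihood, FDR below 0.05) was run on genes above 1 CPM in 3 or more libraries and was checked on simulated data. CPM are TMM-scaled, and RPKM use the union of exons. Single values and ratios used log2(CPM + 0.5) and exact permutation. DESeq2 1.42.0, limma-trend 3.58.1 (the study's method), other scalings and filters, an animal block and left-out libraries were alternatives.

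Libraries of the same animal deviated together (r 0.361 to 0.664 over 5 pairs, at most 0.0675 between different animals over 20), and the labels give the animal. The 8 members and all lists were chosen with earlier results of these data known. Named genes were the members, all other Ms4a genes, *Arg1*, per list the most abundant, the most changed called and the absent defining genes, tested partners, called or nearest neighbours, and the 3 closest profiles; *Cx3cr1*, *Ptprc* and single markers were added after their values were seen. Promoter windows are RefSeq's. A few named list genes are left out of the text and not reported here.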

Additional observations from a re-analysis of the deposited data

How the results depend on the processing

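The 3 calls held their direction under every alternative run. *Ms4a4b* passed in all 22 fits that kept it, and *Ms4a4c* and *Ms4a7* in 22 of 23 each. With the animal as a replicate block, edgeR and limma-trend each called 3 members higher and 4 lower, and 2307 and 2250 genes higher and 2519 and 2428 lower overall; the block lost no member's call. Under the added fold limit 0 members were higher, with 77 genes higher and 122 lower. The filter of CPM above 5 in at least 5 libraries dropped *Ms4a4b*, leaving 1 member lower. Total counts called 701 genes higher and 1282 lower, and DESeq2 1276 and 1307. With libraries or animals left out, members called higher ran from 0 to 1 and lower from 1 to 2, and all genes called higher from 360.0 to 1037 and lower from 284 to 911, the fewest without m6.

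Among genes that were not called, the log2 fold change crossed 0 when libraries were left out for *Ms4a6d* (-0.013 to 0.25), *Ms4a8a* (-0.35 to 0.062), *Tyrobp* (-0.013 to 0.048), *Syk* (-0.020 to 0.069), *Gm6579* (-0.066 to 0.23), *Mmp19* (-0.13 to 0.20), *Adamtsl4* (-0.10 to 0.23) and *Trim6* (-0.085 to 0.32). With total counts *Tyrobp* was at -0.022 and *Syk* at -0.026. The cause was not tested. As differences within animals the ratios kept their values (1.21, 1.48, -0.24, -0.54 and -0.30) with an adjusted exact p of 0.0729, which 5 pairs cannot improve. *Ms4a7* to *Ms4a4a* (0.23) had the same adjusted exact p within animals, so that test does not set it apart from them. *Ms4a4b* to *Ms4a4c* had 0.125. List counts with libraries left out were added after seeing the data. Beside those in the report, they moved by over 1.5 times for more lists. Plasma cell genes had 2 lower without the ARG1+ library of m2. Oligodendrocyte genes had 2 higher without the ARG1- library of m234, 1 without that animal. Partners had 2 lower without the ARG1+ library of m234, 1 higher without the ARG1- one, and both without m234. The other Ms4a genes with *Tmem176a* and *Tmem176b* had 2 lower when m234 was omitted, whole or only its ARG1+ library. They had 1 higher when m235 lacked its ARG1+ library. General macrophage genes had 1 lower when m235 was omitted, whole or only its ARG1+ library. Monocyte genes had 1 higher when m2 lacked its ARG1- library. Chromosomal neighbours had 1 higher in that fit, and also when m234 or m235 lacked its ARG1+ library. *Ms4a4b*, with 339 and 586 reads, is the member most limited by depth.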
